A study of Homo sapiens with 12 samples.

Results

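The snoRNA host genes described here are the 31 genes of the deposited gene table named SNHG followed by a number, together with GAS5, ZFAS1 and EPB41L4A-AS1, out of 63811 genes in all. The rule uses gene names and no measured value. RNA was measured by sequencing in TE-1, a human oesophageal cancer cell line, 48 h after transfection. The 12 libraries formed 4 groups of 3: OE_IFI6 (a vector overexpressing IFI6, an interferon-induced gene), OE_control (labelled as its control), sh_IFI6 (an interference vector against IFI6) and sh_control (labelled as the control of that). All groups were cells of the same line grown in DMEM with serum, and the labels do not say what the control cells were transfected with. The labels give neither the promoter of the vectors nor the origin of replicate libraries. Since nothing shows that replicates were grown apart, a p-value here reflects library-to-library spread alone, and that spread may be technical.

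Small nucleolar RNAs (snoRNAs) are mostly cut out of introns: the host gene is transcribed and spliced, the intron lariat is debranched, exonucleases trim it to the snoRNA, and core proteins protect the trimmed ends. Box C/D snoRNAs guide ribose methylation of ribosomal RNA, and box H/ACA snoRNAs guide pseudouridylation. The spliced exons of many host genes code for no conserved protein. They are often removed by nonsense-mediated decay, and the level measured for a host gene therefore reflects both its transcription and the decay of its exons. Many hosts begin with a terminal oligopyrimidine tract, a run of C and T at the transcription start that is also typical of ribosomal protein genes.

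The sequences of 3 host promoters are shown because these are the members called higher in OE_IFI6 than in OE_control. Each is the RefSeq window of 250 bases before and 50 bases from the start (GRCh38.p14), printed 5′ to 3′, with the pyrimidine tract at the start in capitals.
SNHG19, chr16:2155309-2155608, minus strand: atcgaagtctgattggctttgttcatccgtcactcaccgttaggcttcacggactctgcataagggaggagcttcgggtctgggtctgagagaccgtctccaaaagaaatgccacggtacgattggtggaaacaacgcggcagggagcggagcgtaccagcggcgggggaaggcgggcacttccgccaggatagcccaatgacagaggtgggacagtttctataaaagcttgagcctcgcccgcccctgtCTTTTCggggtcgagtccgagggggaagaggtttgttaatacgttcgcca
SNHG4, chr5:139273851-139274150, plus strand: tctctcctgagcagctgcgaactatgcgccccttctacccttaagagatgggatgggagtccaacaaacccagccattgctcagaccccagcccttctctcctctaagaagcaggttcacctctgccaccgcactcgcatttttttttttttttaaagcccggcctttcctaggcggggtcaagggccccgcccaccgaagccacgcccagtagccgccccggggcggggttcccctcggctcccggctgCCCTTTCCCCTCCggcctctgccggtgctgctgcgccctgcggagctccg
SNHG8, chr4:118278512-118278811, plus strand: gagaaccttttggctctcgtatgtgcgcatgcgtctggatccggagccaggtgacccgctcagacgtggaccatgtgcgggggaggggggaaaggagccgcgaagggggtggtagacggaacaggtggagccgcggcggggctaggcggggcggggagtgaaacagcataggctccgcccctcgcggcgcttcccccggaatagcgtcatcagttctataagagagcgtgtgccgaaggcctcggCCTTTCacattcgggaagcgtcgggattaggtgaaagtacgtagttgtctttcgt

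A tract was scored where a C among the 5 bases before the start or the first 5 bases from it was followed by at least 4 further C or T. In SNHG16 a CTTTTC began just past these bases and was not scored. Of the 23 members that reached a mean of 1 FPKM (fragments scaled to transcript length and library size), 21 had a RefSeq promoter. The tract stood in 9 of these (42.9%), beside 22 of 44 promoter windows (50%) of 33 protein-coding snoRNA hosts, some with several starts, and 19.7% of 35116 promoters in the RefSeq table. The RefSeq start is not always the deposited gene start. GAS5 and SNHG29 start at chr1:173868882 and chr17:16438767 in the deposited spans, and a tract at those starts was not scored. The other members with a tract are shown by 10 bases before and 20 bases from the RefSeq start, with the tract in capitals. After them come the 3 most abundant members without a scored one.
SNHG32, chr6:31834906-31834935, plus strand: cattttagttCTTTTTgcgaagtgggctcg
SNHG5, chr6:85678714-85678743, minus strand: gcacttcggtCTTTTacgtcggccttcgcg
ZFAS1, chr20:49278632-49278661, plus strand: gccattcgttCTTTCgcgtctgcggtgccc
SNHG12, chr1:28581854-28581883, minus strand: gcttcagcgCCCTTTCTCCCCgccgcattc
SNHG7, chr9:136728165-136728194, minus strand: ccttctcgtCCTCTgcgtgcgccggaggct
SNHG17, chr20:38435309-38435338, minus strand: gtgtggcctcagtCCTTCgccgtccctcgc
SNHG29, chr17:16438977-16439006, plus strand: ccttttgtgaggattgggatattccgactc
GAS5, chr1:173869026-173869055, minus strand: tcatgaattcagatgtgtttattttggagc
SNHG16, chr17:76557754-76557783, plus strand: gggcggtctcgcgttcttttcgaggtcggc

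SNHG19, SNHG32, SNHG5, SNHG4 and ZFAS1 carried the tract exactly at the RefSeq start, whereas in SNHG8 it began 5 bases before it. Other short motifs were no more than sporadic in the promoters, searched on both strands. CACGTG, the E-box core, stood in 2 of 21 (SNHG7 and SNHG30) against 7.26% of all promoters. GAANNTTC, the core of the heat shock element, stood in 2 (GAS5 and SNHG29) against 6.77%. TGATGCAA was found in none of them and in 0.866% of all promoters, and TGACGTCA in none of them and in 1.85%. A match is a description of letters only.

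The hosted RNAs of SNHG19 and SNHG8 are shown next, as GENCODE release 29 gives them. SNORD60 is a box C/D snoRNA and its C and D boxes are in capitals. SNORA24 is a box H/ACA snoRNA, with the ACA nearest its 3′ end in capitals.
SNORD60 in SNHG19, chr16:2155023-2155105, minus strand: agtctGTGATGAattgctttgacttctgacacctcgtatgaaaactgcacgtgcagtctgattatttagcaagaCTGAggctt
SNORA24 in SNHG8, chr4:118279190-118279320, plus strand: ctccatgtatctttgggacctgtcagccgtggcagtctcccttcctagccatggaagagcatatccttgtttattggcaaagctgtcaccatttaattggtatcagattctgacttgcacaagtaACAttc

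In the annotated transcripts of GENCODE 29 these snoRNAs lay in introns. SNHG19-201 has 2 exons with SNORD60 in its intron, SNHG8-205 has 4 exons with SNORA24 in an intron, and SNHG4-202 has 5 exons with SNORA74D in an intron.

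The libraries were examined before the members. Protein-coding genes summed to between 325877 and 357145 FPKM, the small RNAs of the table took 18.0% to 28.3% of all FPKM, and 13547 to 14231 genes reached 1 FPKM. Read counts were not used here, so the depth behind each value is unknown. IFI6 was 312 ± 45.0 FPKM in OE_IFI6 and 24.7 ± 5.92 in OE_control (SD, n = 3; log2 difference 3.62, limma adjusted p = 9.62e-07). It was 14.6 ± 0.646 in sh_IFI6 and 23.4 ± 1.97 in sh_control (log2 difference -0.64, limma adjusted p = 0.844). The groups did not overlap in either case, and an exact two-sided permutation test gave p = 0.1 for both, the smallest it can give with 3 against 3. Of 11 squamous and epithelial markers, KRT8, KRT18 and DSP exceeded 1 FPKM, while KRT5, KRT6A, EPCAM and SOX2 were listed at 0. KRT19 (mean 0.375 FPKM), TP63 (0.101), CDH1 (0.042) and KRT14 (0.0015) were also low. Of 11 immune, endothelial and fibroblast markers, 5 exceeded a mean of 1 FPKM, and the list summed to 6.22 to 9.39 FPKM per library. The 5 were the fibroblast markers COL1A1 (2.14), COL3A1 (1.57), DCN (1.53) and PDGFRB (1.49) and the immune marker CD68 (1.06). OE_control stood apart from the other 3 groups: its libraries lay at -35.4 to -26.3 on the first principal component and all others at 7.88 to 13.0. HSPA1A, a heat shock chaperone, was 83.2 to 181 FPKM in OE_control and 5.69 to 14.4 elsewhere. DDIT3, a transcription factor of the unfolded protein response, was 17.3 to 21.8 FPKM in OE_control and 3.38 to 6.61 elsewhere. The part of this difference in the results below was not tested.

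Levels of the host genes spanned more than 2 orders of magnitude per unit length. SNHG29 led with a mean of 623 FPKM over the 12 libraries, followed by GAS5 (95.4), SNHG16 (72.9), SNHG1 (70.0) and SNHG32 (49.0). A middle group held SNHG7 (37.3), SNHG4 (26.4), ZFAS1 (25.7), SNHG8 (20.9), SNHG19 (18.1), SNHG3 (15.9), SNHG17 (15.2), SNHG12 (11.4) and SNHG15 (10.1). Below 10 FPKM came SNHG30 (7.59), SNHG5 (5.75), SNHG10 (5.55), SNHG6 (4.24), EPB41L4A-AS1 (3.82), SNHG22 (2.32), SNHG11 (2.11), SNHG20 (1.83) and SNHG21 (1.33). The 8 remaining members had means under 1 FPKM and entered no test. SNHG9, just under the limit, averaged 0.877 FPKM, SNHG14, SNHG26, SNHG25, SNHG31 and SNHG28 were lower, and SNHG27 and SNHG18 were listed at 0 in every library. SNHG25 was uneven among them: it reached 2.46 FPKM in sh_IFI6 replicate 1 and stayed under 1 in every other library.

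**Figure D1:**
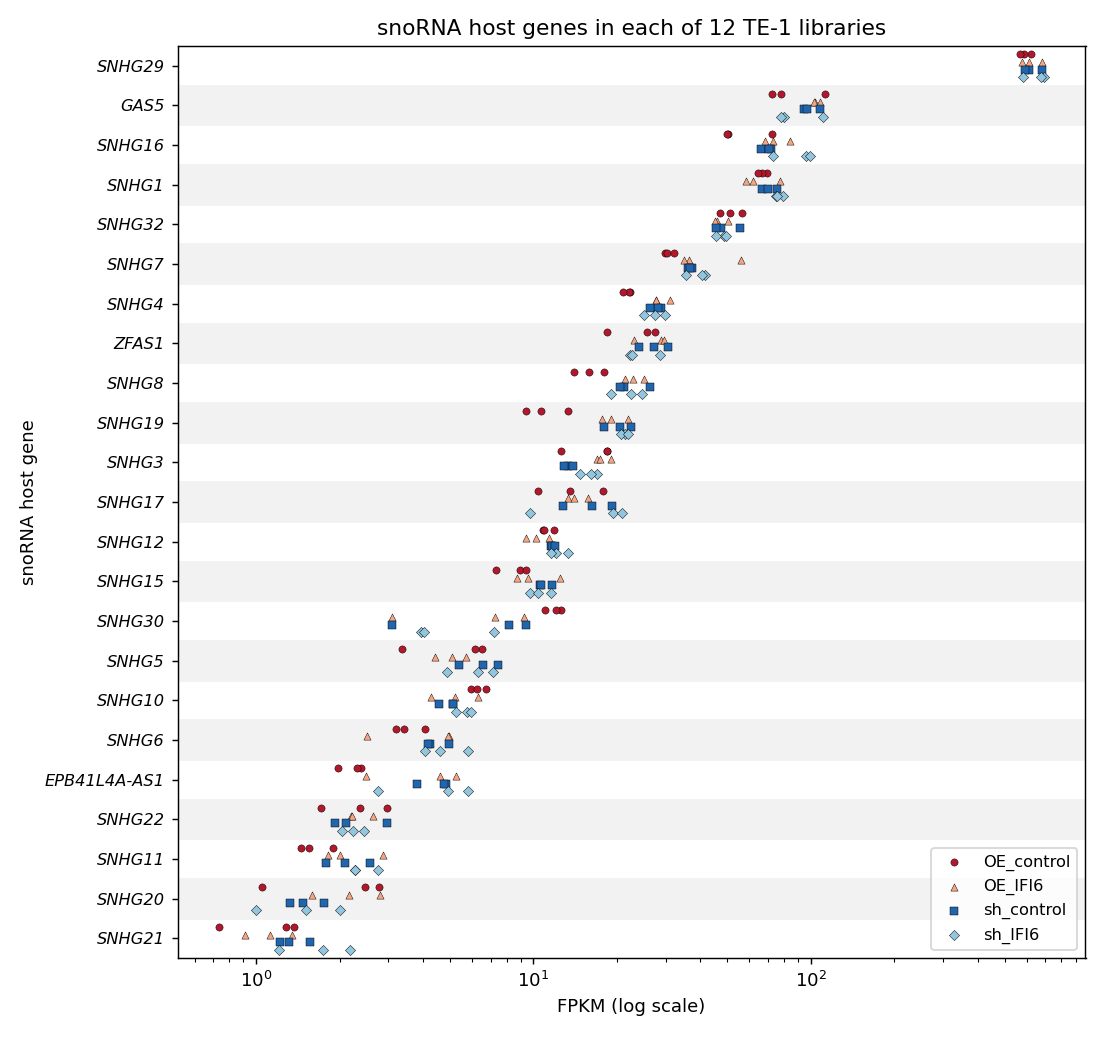
FPKM (log axis) of the 23 tested host genes, 1 point per library and 3 libraries per group, ordered by mean. SNHG29 lies between 566 and 694 FPKM in all 12 libraries, and the OE_control points of SNHG19, SNHG8 and SNHG4 lie to the left of the other groups.

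The summed level of all 31 members was 1046 ± 54.5 FPKM in OE_control, 1147 ± 86.3 in OE_IFI6, 1141 ± 48.9 in sh_control and 1182 ± 90.1 in sh_IFI6. These ranges overlapped, at 1003 to 1107 FPKM in OE_control and 1075 to 1243 in OE_IFI6. Without SNHG29 the sums were 455 ± 36.9, 522 ± 34.6, 514 ± 13.0 and 531 ± 33.5 FPKM in the same order. The highest library exceeded the lowest by 1.23 times for SNHG29 and by 4.06 times for SNHG30, with a median of 1.87 over the 23 tested members. Their median within-group SD was 0.192 on the log2(FPKM + 1) scale, beside 0.198 over the 14006 genes tested.

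The overexpression comparison asked whether the host genes differed when IFI6 was raised. Of the 23 tested members, 3 rose and none fell in OE_IFI6 against OE_control: SNHG19, SNHG8 and SNHG4, each 1.3 to 1.8 times higher. By limma with adjusted p under 0.05, 4.09% of all 14006 genes tested rose and 3.23% fell. The unadjusted p was under 0.05 for 7 of the 23 members and for 22.4% of all genes. The estimate was above 0 for 17 members and below 0 for 6, with a median log2 difference of 0.12 beside 0.037 over all genes tested. Groups did not overlap, OE_IFI6 above, for 5 members (13.1% of all genes) and, OE_IFI6 below, for 1 member (9.72% of all genes).

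SNHG19, the host of SNORD60, rose most clearly. Its level was 9.38, 10.7 and 13.3 FPKM in the OE_control libraries and 17.6, 19.1 and 22 in OE_IFI6. It was 18.0, 22.6 and 20.5 FPKM in sh_control and 21.4, 20.6 and 21.9 in sh_IFI6. The OE_control libraries were thus the 3 lowest of the 12, and the other groups overlapped one another. The log2 difference between OE_IFI6 and OE_control was 0.77 (SE 0.14, limma adjusted p = 0.0066, higher in 3 of 3 libraries). The call held when any single library was left out (adjusted p 0.0056 to 0.023) and ended when only these 6 libraries were fitted (adjusted p = 0.074).

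SNHG4, whose introns carry H/ACA snoRNAs, showed a smaller rise. OE_control stood at 22.2, 22.1 and 21.0 FPKM and OE_IFI6 at 27.7, 27.6 and 31.1. sh_control stood at 28.9, 28.1 and 26.3 FPKM and sh_IFI6 at 25, 29.7 and 27.4. Again the 3 OE_control libraries were below all others. The log2 difference was 0.38 (SE 0.098, limma adjusted p = 0.038). The call ended without any one of the 6 libraries compared (adjusted p 0.064 to 0.11).

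SNHG8, the host of SNORA24, was 15.9, 14.0 and 18.0 FPKM in OE_control and 22.8, 21.3 and 25 in OE_IFI6. The sh_control libraries had 21.2, 20.5 and 26.2 FPKM and the sh_IFI6 libraries 22.4, 24.7 and 19.1. OE_control held the lowest values here too, and its highest library lay close below the lowest sh_IFI6 library. The log2 difference was 0.51 (SE 0.14, limma adjusted p = 0.048). This call also ended without any one of the 6 libraries (adjusted p 0.054 to 0.13). It ended as well with no FPKM filter, with median-of-ratios or quantile scaling, and with limma without trend. Fitting only these 6 libraries ended it too.

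SNHG7, EPB41L4A-AS1 and SNHG30 had groups that did not overlap but missed the threshold. SNHG7, a host of H/ACA snoRNAs, was 29.9, 30.2 and 32.2 FPKM in OE_control and 36.5, 34.9 and 56.2 in OE_IFI6, and replicate 3 of OE_IFI6 was far above every other library (limma adjusted p = 0.14). EPB41L4A-AS1, the host of SNORA13, was 2.38, 2.31 and 1.98 FPKM in OE_control and 2.48, 4.58 and 5.27 in OE_IFI6 (limma adjusted p = 0.15, and 0.049 without OE_IFI6 replicate 1). SNHG30 went the other way, with 12.5, 11 and 12.1 FPKM in OE_control and 7.25, 3.08 and 9.27 in OE_IFI6 (log2 difference -0.87, limma adjusted p = 0.21). SNHG16 had a log2 difference of 0.40, with overlapping groups (limma adjusted p = 0.17).

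**Figure D2:**
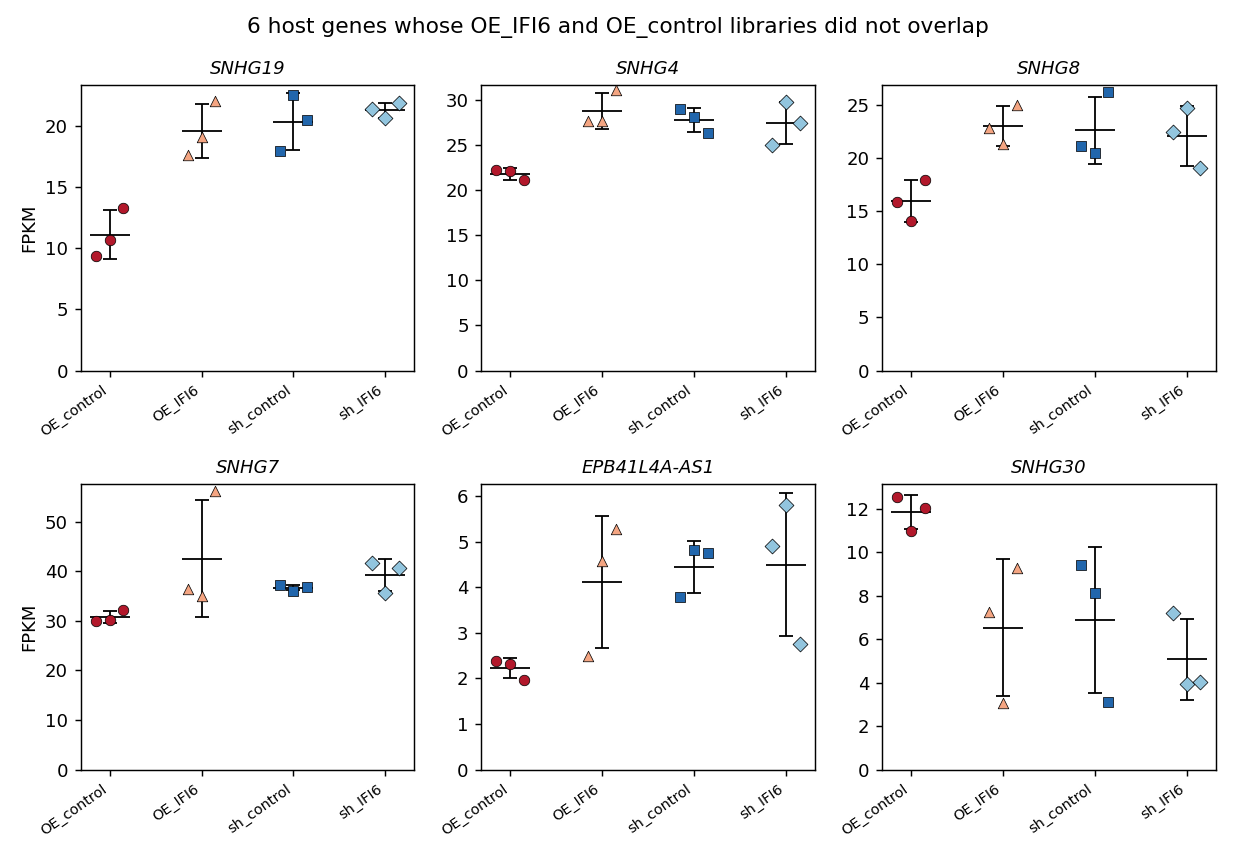
FPKM of the 6 host genes whose OE_IFI6 and OE_control libraries did not overlap, by group, with 1 point per library and the group mean ± SD (n = 3). OE_control is the lowest group for SNHG19, SNHG4, SNHG8, SNHG7 and EPB41L4A-AS1 and the highest for SNHG30.

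Of the 5 most abundant hosts none passed. SNHG16 had the largest estimate of them, 0.40, close to that of SNHG4. SNHG29 was 591 ± 27.1 FPKM in OE_control and 624 ± 52.1 in OE_IFI6, a log2 difference of 0.077 with a 95% confidence interval of -0.16 to 0.31. GAS5, known as a growth-arrest transcript and host of box C/D snoRNAs, was 87.6 ± 21.5 against 105 ± 2.61 FPKM in the same groups (log2 difference 0.28, interval -0.096 to 0.65). SNHG1 had a log2 difference of -0.034 (interval -0.28 to 0.21) and SNHG32 one of -0.12 (interval -0.36 to 0.11). For these 5 genes the groups overlapped, and the intervals of SNHG16 and GAS5 include shifts as large as that of SNHG4.

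The knockdown comparison asked the same with IFI6 lowered. None of the 23 members passed in sh_IFI6 against sh_control, where 0% of all 14006 genes passed by limma. The unadjusted p was under 0.05 for 0 members and for 726 genes (5.18%). The members' median log2 difference was -0.0041, beside 0.0068 over all genes. SNHG16, SNHG3 and SNHG10 lay above sh_control without overlap (9.37% of all genes did), and none lay below (8.87% of all genes). SNHG16, a host of box C/D snoRNAs, was 65.8, 71.6 and 70.8 FPKM in sh_control and 72.8, 96.0 and 99.6 in sh_IFI6 (log2 difference 0.35, limma adjusted p = 0.84). SNHG3 was 13.3, 12.9 and 13.8 FPKM in sh_control and 17.0, 16.1 and 14.7 in sh_IFI6. The 3 genes that rose with overexpression differed by log2 0.067 (SNHG19), -0.023 (SNHG4) and -0.034 (SNHG8) between sh_IFI6 and sh_control, and their intervals ran from -0.24 to 0.19 for SNHG4, from -0.34 to 0.27 for SNHG8 and from -0.23 to 0.37 for SNHG19.

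The difference between the overexpression and knockdown effects was tested as an interaction. No member passed, while 2.63% of all genes did. The unadjusted p was under 0.05 for 4 of the 23 members and for 17.9% of all genes. SNHG19 had the smallest adjusted p (log2 0.70, SE 0.19, limma adjusted p = 0.087), followed by SNHG4 (0.41, adjusted p = 0.15) and SNHG8 (0.54, adjusted p = 0.17). An effect in one pair of groups and not in the other was therefore not shown to differ for any host gene as a whole.

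The control groups were compared directly because neither is labelled as altered in IFI6, and this comparison shares the OE_control libraries with the overexpression comparison. SNHG19 was lower in OE_control than in sh_control (log2 difference -0.82, SE 0.14, limma adjusted p = 0.0055, lower in 3 of 3 libraries). It was the only member called, where 4.58% of all genes were lower and 2.47% higher. Below the threshold stood SNHG8 (-0.48, adjusted p = 0.062), SNHG4 (-0.34, adjusted p = 0.064) and EPB41L4A-AS1 (-0.76, adjusted p = 0.087). OE_control lay below sh_control without overlap for 7 members (19.6% of all genes), namely SNHG19, SNHG8, SNHG4, EPB41L4A-AS1, SNHG15, SNHG6 and SNHG7. It lay above for 2, SNHG10 and SNHG30 (9.9% of all genes). The members' median was -0.21, beside -0.080 over all genes. With values scaled to the protein-coding sum, SNHG8 and SNHG4 were called as well (adjusted p = 0.029 and 0.023), and without OE_control replicate 2 SNHG3 was higher in OE_control (log2 0.44, adjusted p = 0.037). In OE_IFI6 against sh_control, no member passed, while 0.0286% of all genes did, and the smallest adjusted p among members was 0.96. There SNHG19, SNHG4 and SNHG8 had log2 differences of -0.053, 0.048 and 0.031.

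**Figure D3:**
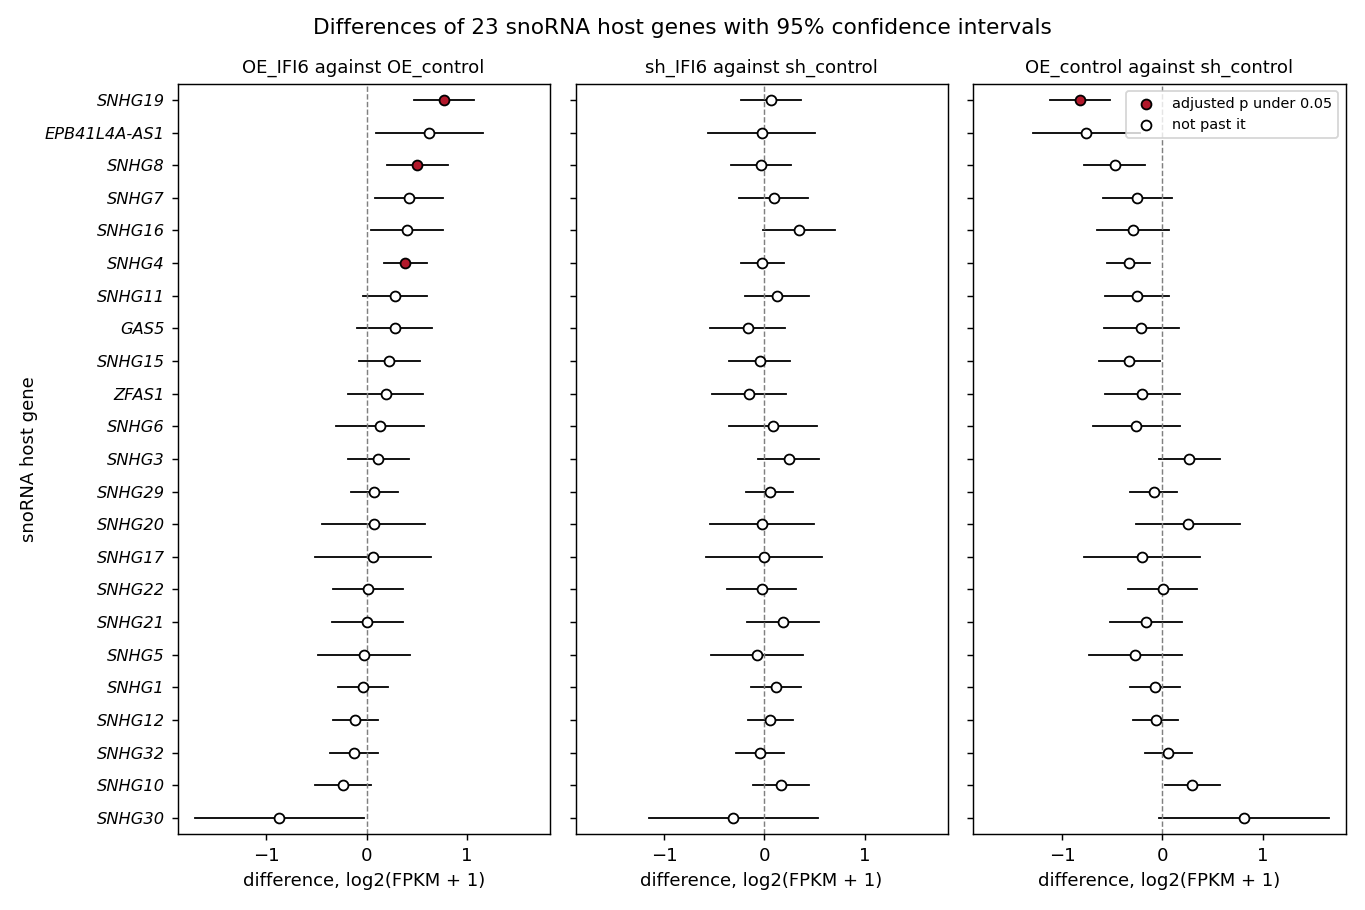
Differences on the log2(FPKM + 1) scale with 95% confidence intervals for the 23 tested host genes in 3 comparisons, with filled points past adjusted p 0.05 by limma. SNHG19, SNHG8 and SNHG4 are filled in the left panel, none in the middle and SNHG19 in the right, and the left and right panels share the OE_control libraries.

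Members with and without the pyrimidine tract were set side by side. The 9 with a tract had a median log2 difference of 0.19 between OE_IFI6 and OE_control, and the 12 without had 0.074. In sh_IFI6 against sh_control the medians were -0.023 and 0.083. In OE_control against sh_control, which shares the OE_control libraries with the overexpression comparison, they were -0.25 and -0.080. All 3 called genes were among the 9 with the tract. So were SNHG32, SNHG5, SNHG12, SNHG7, SNHG17 and ZFAS1, which did not pass. The tract members were of middle abundance, from 5.75 to 49.0 FPKM, while those without ranged from 1.33 to 623. SNHG16, counted as without, had a CTTTTC just past the scored bases and a log2 difference of 0.40 with overexpression. No test of this split was made.

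Host genes are spliced into many forms, so the deposited transcript table was examined. It listed 757 transcripts of the members, of which 106, from 21 genes, reached a mean of 1 FPKM. In OE_IFI6 against OE_control 3 rose and 1 fell, where 1.16% of the 28221 transcripts tested passed. Of the 106, 14 (13.2%) had an unadjusted p under 0.05 by limma, the same share as over all transcripts (13.2%). SNHG19 is a single transcript there, SNHG19-201, which therefore repeats the gene's values (transcript adjusted p = 0.049 by limma), a call kept in 1 of 6 fits that left out a library (0.037 to 0.13). The remaining 3 belong to SNHG4 and SNHG8. None passed in sh_IFI6 against sh_control (0.0283% of all transcripts), and the unadjusted p was under 0.05 for 8 of the 106 (7.55%) beside 5.16% of all transcripts.

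Within SNHG4 the forms moved in opposite directions. SNHG4-202, a form of 2383 bases, was 6.84, 5.72 and 5.62 FPKM in OE_control and 14.1, 15.5 and 14.7 in OE_IFI6. It was 15.5, 13.7 and 14.0 FPKM in sh_control and 12.9, 16.1 and 13.8 in sh_IFI6. SNHG4-206, a form of 310 bases, was 8.70, 8.97 and 8.38 FPKM in OE_control and 3.87, 4.12 and 5.28 in OE_IFI6. All 3 OE_control libraries were lowest for SNHG4-202 and highest for SNHG4-206, with no overlap with any other group. SNHG4-202 thus made up 27.8% of the gene's FPKM in OE_control and 51.3% to 52.1% in the other groups, and SNHG4-206 made up 39.8% against 13.9% to 15.4%. SNHG4-202 rose by log2 1.16 (SE 0.13, limma adjusted p = 0.0037), a call that held without any single library (0.0055 to 0.014). SNHG4-206 fell by 0.84 (SE 0.15, limma adjusted p = 0.037), a call kept in 1 of 6 fits that left out a library (0.034 to 0.11). SNHG4-203, the second most abundant form, did not pass (log2 difference 0.11).

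The change in SNHG4-202 also differed between overexpression and knockdown (log2 1.18, SE 0.18, limma adjusted p = 0.041), where 0.273% of all transcripts passed. This call held in 1 of 12 fits that left out a library (adjusted p 0.042 to 0.097). SNHG4 shares its strand and part of its locus with MATR3, a nuclear matrix gene. In GENCODE 29, 12.3% of the bases of SNHG4-202 and 71.6% of those of SNHG4-206 lie in exons also annotated to MATR3, so reads of the genes may be split uncertainly. MATR3 itself was 31.8 ± 4.81 FPKM in OE_control and 41.1 ± 10.7 in OE_IFI6 (limma adjusted p = 0.27).

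SNHG8 showed a related pattern. SNHG8-206 was 2.19, 3.67 and 2.22 FPKM in OE_control, 7.57, 8.16 and 9.36 in OE_IFI6, 7.61, 6.40 and 7.41 in sh_control and 7.65, 6.74 and 6.89 in sh_IFI6. It rose by log2 1.36 in OE_IFI6 (SE 0.17, limma adjusted p = 0.0061), also without any single library (0.0026 to 0.024). SNHG8-205 was 8.18, 5.30 and 9.65 FPKM in OE_control and 4.64, 3.17 and 4.91 in OE_IFI6 (log2 difference -0.72, limma adjusted p = 0.47). The libraries of OE_control and OE_IFI6 did not overlap for SNHG8-205, but sh_control replicate 3 reached 9.36 FPKM, within the range of OE_control. SNHG8-206 took 16.9% of the gene's FPKM in OE_control and 31.5% to 36.3% elsewhere. Its interaction had a log2 value of 1.37 (limma adjusted p = 0.064).

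**Figure D4:**
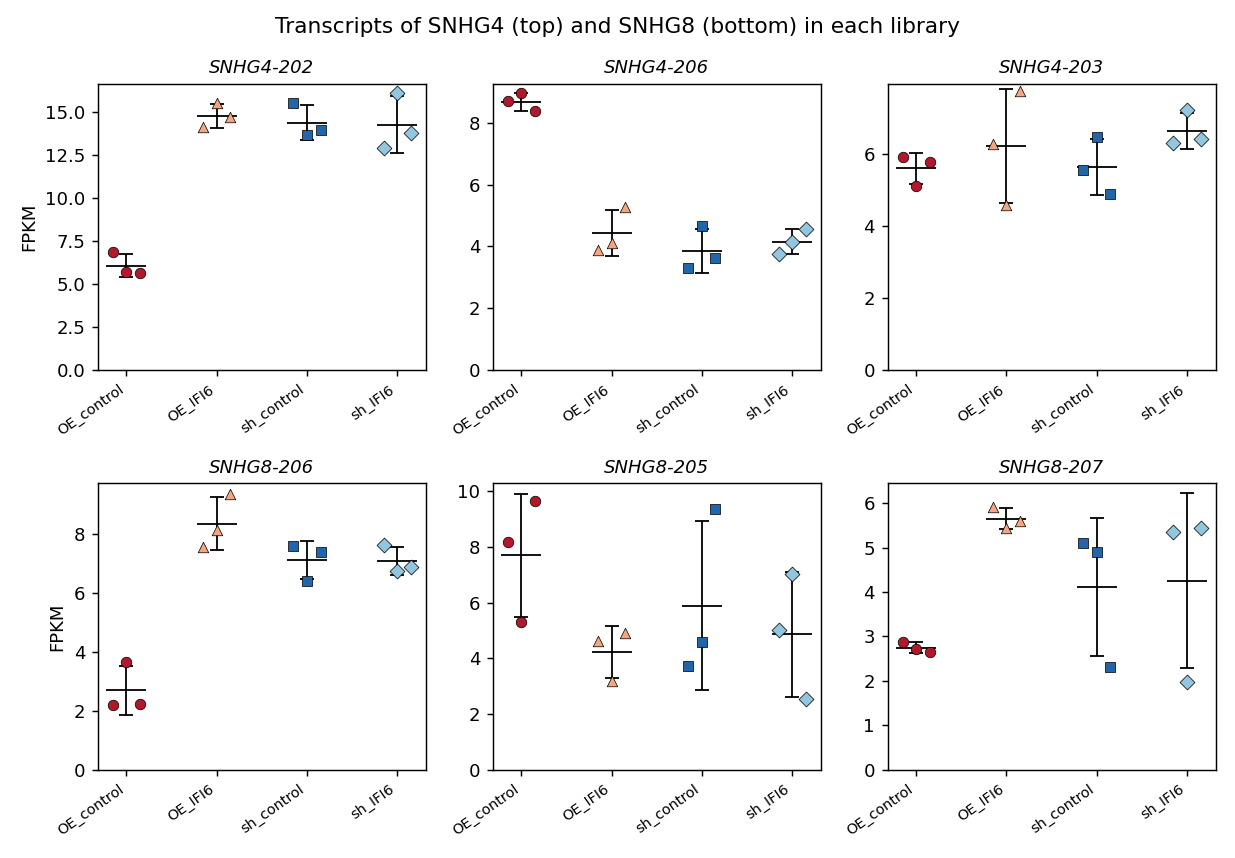
FPKM of 3 transcripts of SNHG4 (top row) and 3 of SNHG8 (bottom row), 1 point per library, with the group mean ± SD (n = 3). OE_control is lowest for SNHG4-202 and SNHG8-206 and highest for SNHG4-206.

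The same transcripts separated the control groups, where 1.03% of all transcripts passed. Of the 106 member transcripts, 16 (15.1%) had an unadjusted p under 0.05 there by limma, beside 13.0% of all transcripts. SNHG4-202 (log2 -1.13), SNHG8-206 (-1.16) and SNHG19-201 (-0.82) were lower in OE_control than in sh_control, and SNHG4-206 (1.01) was higher, by limma with adjusted p = 0.0051, 0.016, 0.039 and 0.018. SNHG4-202 kept this call in 6 of 6 fits that left out a library, SNHG8-206 and SNHG4-206 in 2 of 6 (up to 0.065 and 0.076) and SNHG19-201 in 1 of 6 (up to 0.14). Among the 5 most abundant members the leading annotated forms did not pass in any comparison. SNHG29-225 carried 59.2% of SNHG29, SNHG32-205 47.2% of SNHG32, SNHG16-202 33.2% of SNHG16 and GAS5-218 28.0% of GAS5. Single libraries stood out in some forms: SNHG29-209 was 206 FPKM in sh_control replicate 2 and 0.798 to 1.49 in the others. GAS5-218 was 1.80 and 4.11 FPKM in sh_control replicates 2 and 3 and 18.9 to 40.2 in the rest. The gene totals of SNHG29 and GAS5 had no such gap.

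Some gene values rested on transcripts assembled by the authors rather than on annotated ones. For 14 of the 23 tested members, SNHG19, SNHG4 and SNHG8 among them, under 5% of the FPKM did. For SNHG1 the share was 78.9%, almost all on a single assembled transcript at chr11:62851984-62888868 that overlaps SLC3A2, an amino acid transporter subunit on the opposite strand listed at 763 FPKM. For SNHG22 it was 93.5%, for SNHG6 41.8% and for GAS5 14.8%. The levels of SNHG1 and SNHG22 given above are thus mostly not those of annotated host transcripts.

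The deposited gene table also held 144 snoRNA or scaRNA genes within the members on the same strand, 84 of them in SNHG14. All but 1 member held at least 1, the exception being GAS5, for which none was analysed here. Of the 144, 85 were listed at 0 and 21 reached a mean of 1 FPKM. These RNAs are shorter than usual library fragments, so their FPKM may not measure mature snoRNA. The highest were SNORA24 in SNHG8 (103 FPKM), SCARNA13 in SNHG10 (36.3), RF00345 in SNHG19 (28.5), SNORD27 in SNHG1 (26.4), SNORD12C in ZFAS1 (21.0), SNORA71A in SNHG17 (19.8) and RF00560 in SNHG7 (12.3). SNORD26 in SNHG1 (8.80), SNORA74D in SNHG4 (8.52) and SNORA44 in SNHG12 (7.95) followed. SNHG29, the most abundant host, had 3 entries, none above 0.0568 FPKM. The order of the hosts was thus not that of their snoRNA entries.

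Of the 21 entries, 4 passed in OE_IFI6 against OE_control, 3 higher and 1 lower, where 4.09% of all genes rose and 3.23% fell. Of these, 2 are overlapping entries of 1 locus in SNHG19. SNORD60 was 0.769 ± 0.111 FPKM in OE_control and 1.55 ± 0.149 in OE_IFI6 (log2 difference 0.52, limma adjusted p = 0.018). RF00345, named by its Rfam family and lying within SNORD60 at chr16:2155025-2155104, was 16 ± 2.11 against 33.2 ± 2.54 FPKM (log2 difference 1.01, SE 0.15, limma adjusted p = 0.0021). These entries overlap, and how reads were divided between them is uncertain. SNORD12C, a box C/D snoRNA in ZFAS1, was 13.4 ± 2.85 against 22.3 ± 2.69 FPKM (log2 difference 0.71, limma adjusted p = 0.047). That call ended without any one of the 6 libraries (adjusted p up to 0.15 over all alternatives), whereas those of RF00345 and SNORA71A held in all 17 alternatives tried. The SNORD60 call ended without OE_control replicate 2 or OE_IFI6 replicate 2 (adjusted p up to 0.10 over all alternatives). All 3 entries that rose were also lower in OE_control than in sh_control, where 4.58% of all genes were lower. The log2 differences were -0.91 for RF00345, -0.82 for SNORD12C and -0.48 for SNORD60 (limma adjusted p = 0.0050, 0.028 and 0.029). Their sh_control means were 31.2, 24.5 and 1.48 FPKM. These calls held in 17 of 17, 12 of 17 and 9 of 16 alternatives.

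SNORA71A, an H/ACA snoRNA in SNHG17, moved the other way from these. It was 30.8 ± 5.25 FPKM in OE_control, 15.4 ± 2.27 in OE_IFI6, 13.4 ± 1.70 in sh_control and 19.4 ± 3.47 in sh_IFI6. SNORA71A was also higher in OE_control than in sh_control (log2 1.13, limma adjusted p = 0.0031), where 2.47% of all genes were higher. It fell by 0.95 on the log2 scale with overexpression (SE 0.17, limma adjusted p = 0.0066), and the interaction was -1.44 (SE 0.24, limma adjusted p = 0.012). Its host SNHG17 had a log2 difference of 0.066 in the same comparison (interval -0.51 to 0.64). SNORA24 was 104 ± 10.4 FPKM in OE_control and 112 ± 11.5 in OE_IFI6 (log2 difference 0.10, limma adjusted p = 0.68), while its host SNHG8 rose. SNORA71A shares its name with related copies SNORA71B and SNORA71D in the same host, and reads of such copies may be split between them.

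**Figure D5:**
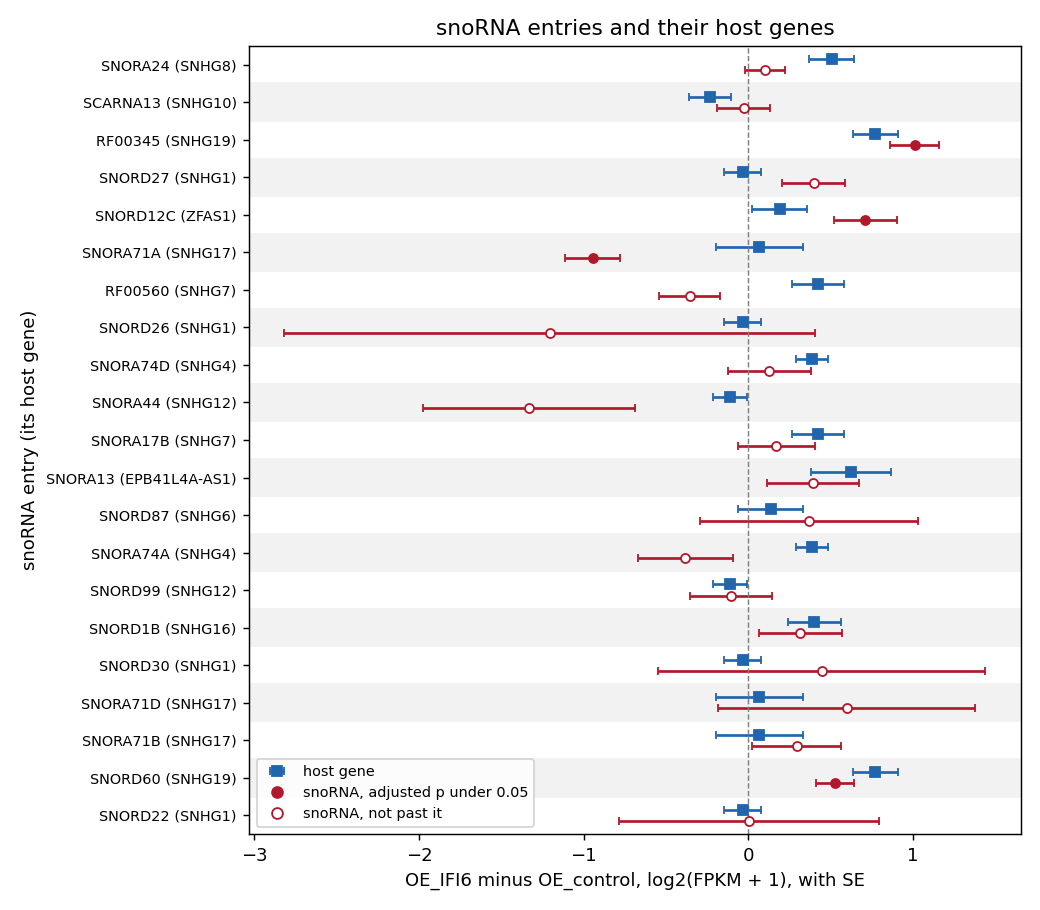
Difference between OE_IFI6 and OE_control on the log2(FPKM + 1) scale, with its SE, for 21 snoRNA entries (circles) and their host genes (squares). RF00345 and SNORD60 lie on the same side as SNHG19, whereas SNORA71A is at -0.95 with its host SNHG17 near 0.

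Protein-coding genes beside the hosts gave a check of the locus. There were 23 tested pairs of a member and a coding gene that overlapped it or lay within 5 kb, 17 of them overlapping and 16 on opposite strands. In OE_IFI6 against OE_control none of the neighbours rose (4.09% of all genes did) and 1 fell (3.23% of all genes). That was HSPA1B, a heat shock chaperone gene next to SNHG32, at 152 ± 54.8 FPKM in OE_control and 11.1 ± 0.828 in OE_IFI6 (log2 difference -3.60, limma adjusted p = 1.37e-05). Its reads may be shared with the near-identical HSPA1A. SNHG32 itself was 51.5 ± 4.78 and 47.1 ± 2.88 FPKM in the same groups. Between the controls 2 neighbours were higher in OE_control and 1 lower, where 2.47% of all genes were higher and 4.58% lower. HSPA1B was among the higher ones (log2 3.25, limma adjusted p = 2.91e-05), at 14.5 ± 2.71 FPKM in sh_control and 14.0 ± 1.66 in sh_IFI6.

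Around SNHG19, RAB26 on the opposite strand was 15.3 ± 1.56 FPKM in OE_control and 19.5 ± 2.67 in OE_IFI6 (log2 difference 0.33, limma adjusted p = 0.17). It was lower in OE_control than in sh_control (log2 -0.57, limma adjusted p = 0.028), a call that ended without any one of 5 of the 6 libraries, OE_control replicate 2 being the exception (adjusted p up to 0.11 over all alternatives). CASKIN1 and TRAF7, its other neighbours, had log2 differences of -0.27 and -0.16 with overexpression. Beside SNHG8, PRSS12 averaged 0.056 FPKM and was not tested. Beside SNHG4, SIL1 had a log2 difference of -0.70 with overexpression (limma adjusted p = 0.12). ACAA2, opposite SNHG22, was higher in OE_control than in sh_control (log2 0.67, limma adjusted p = 0.041), which ended without OE_control replicate 1 or 3 or any sh_control library (adjusted p up to 0.13 over all alternatives).

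The machinery that makes snoRNAs and clears host exons was described from 6 lists. With overexpression 4.09% of all genes tested rose and 3.23% fell. None of the 20 tested snoRNP core and assembly proteins passed with overexpression (median log2 difference 0.17, beside 0.037 over all genes), and TAF9 alone was lower in OE_control than in sh_control (log2 -0.76, limma adjusted p = 0.021). The TAF9 call ended without OE_control replicate 1 or 3 or sh_control replicate 1 or 2 (adjusted p up to 0.077 over all alternatives). Of 43 protein-coding snoRNA hosts, 1 rose and 1 fell with overexpression (median 0.014). NCL, nucleolin, rose by log2 0.79 (limma adjusted p = 0.030), and HSPA8, the constitutive heat shock cognate chaperone, fell by 1.07 on the log2 scale (limma adjusted p = 0.010). Of 22 nonsense-mediated decay factors, ETF1, a translation release factor, rose by log2 0.46 (limma adjusted p = 0.0496) and SMG5, which recruits decay enzymes, fell by 0.67 on that scale (limma adjusted p = 0.0050), with a list median of 0.13. Among 16 intron debranching and exosome genes, EXOSC6, an exosome core subunit, rose by log2 0.42 (limma adjusted p = 0.022), with a median of 0.25.

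Of 19 mTOR pathway genes, 2 rose and 1 fell with overexpression (median 0.063), beside 4.09% and 3.23% of all genes. SESN3 rose by log2 0.78 and EIF4EBP2, which represses cap-dependent translation, by 0.45, while SESN2, a stress-induced inhibitor of mTOR signalling, fell by 1.17 (limma adjusted p = 0.031, 0.023 and 9.47e-05). None of 14 other abundant long non-coding RNAs passed (median 0.22). In sh_IFI6 against sh_control no gene of the 6 lists passed. The fits with only the libraries compared ended the calls of NCL, SMG5, ETF1, EXOSC6, SESN3 and EIF4EBP2, and kept those of HSPA8 and SESN2. Without OE_control replicate 3 the calls of NCL, ETF1, EXOSC6, SESN3 and EIF4EBP2 ended, and without OE_control replicate 1 those of NCL, ETF1, SESN3 and EIF4EBP2. Leaving out OE_IFI6 replicate 1 ended those of ETF1, EXOSC6 and EIF4EBP2, replicate 2 those of NCL, ETF1, SESN3 and EIF4EBP2, and replicate 3 those of NCL and ETF1. The highest adjusted p over all alternatives was 0.10 for NCL, 0.22 for ETF1, 0.18 for EXOSC6, 0.15 for SESN3 and 0.27 for EIF4EBP2. HSPA8 (log2 1.41), SESN2 (1.05) and SMG5 (0.54) were also higher in OE_control than in sh_control (limma adjusted p = 0.0029, 0.00031 and 0.018). SESN3 (-0.77), EIF4EBP2 (-0.51) and EXOSC6 (-0.41) were lower there (limma adjusted p = 0.034, 0.015 and 0.025). HSPA8 and SESN2 kept these calls in all 17 alternatives, SMG5 in 14, EIF4EBP2 in 12, SESN3 in 10 and EXOSC6 in 9.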

How the data were processed

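RNA sequencing libraries of TE-1 cells (12 libraries, 4 groups of 3, grouped and numbered by sample title) were used as FPKM values that the authors computed and deposited for 63811 genes and 259360 transcripts. Per the submitters' processing notes the tools were edgeR, Cuffdiff, StringTie and HISAT2, without versions or roles. The build, the annotation and the use of strand are not given in the sources at hand, so reads of overlapping antisense genes cannot be told apart. All 31 members' spans overlapped those of GENCODE release 29, and 10 had the same bounds. Low FPKM values did not resolve into whole reads, so no count test was run.

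The 14006 genes whose mean reached 1 FPKM entered the test as log2(FPKM + 1), which understates changes of low genes, with limma 3.58.1 (R 4.3.3), 1 model of 4 group means over 12 libraries (8 residual degrees of freedom), a trended prior and Benjamini-Hochberg adjustment over all genes. Transcripts (28221) were fitted likewise. Tests were two-sided, with adjusted p under 0.05 as threshold, and "rose" or "fell" is used for passing changes. The fit was checked on simulated data. snoRNAs and neighbours were assigned from deposited spans and GENCODE strand. Sequences came from RefSeq (GRCh38.p14) and GENCODE 29.

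Every member with a mean of at least 1 FPKM was named, and of the lists up to 4 called genes of smallest p per comparison. Members and lists were chosen with earlier results of these data known. Alternatives were quantile, median-of-ratios and protein-coding-sum scaling, filters at 0 and 5 FPKM, a pseudocount of 0.1, limma without trend or with a robust prior, only the groups compared, the replicate number as a block, leaving out each library, and, chosen after seeing the data, annotated transcripts only and leaving out libraries in the transcript fit. The sequence of 1 hosted snoRNA is not reported here.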

Additional observations from a re-analysis of the deposited data

Results flagged for a closer look

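The effect of the overexpression vector minus that of the interference vector, tested as an interaction by limma, passed for 7 of the named features. Some of these had been named because they passed in another comparison. Over all features tested, the interaction passed for 2.63% of genes and 0.273% of transcripts. For SNHG4-202 it was 1.18 (log2, adjusted p = 0.041), for the SNHG19 entry RF00345 0.90 (adjusted p = 0.045) and for SNORA71A in SNHG17 -1.44 (adjusted p = 0.012). Outside the hosts it was -3.56 for HSPA1B (adjusted p = 0.00039), -1.73 for HSPA8 (adjusted p = 0.013), -1.11 for SESN2 (adjusted p = 0.0033) and -0.85 for SMG5 (adjusted p = 0.020). The RF00345 difference passed in 10 of 22 alternatives (adjusted p up to 0.11), ending without any library but sh_control replicate 1, and that of SMG5 in 16 (up to 0.062), whereas those of SNORA71A, HSPA1B, HSPA8 and SESN2 passed in all 22. That of SNHG4-202 passed in 1 of 12 fits that left out a library (adjusted p 0.042 to 0.097). For each of these 7 features the OE_control mean was the highest or the lowest of the 4 groups.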

How the results depend on the processing

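No called result changed direction under any alternative, and SNHG19 kept its overexpression call in 16 of 17. Members called in OE_IFI6 against OE_control numbered 3, and 1 to 2 without a single library. There were 0 when only the groups compared were fitted, where 225 in place of 1025 of all genes passed. With no filter, median-of-ratios scaling, quantile scaling or limma without trend there were 2, SNHG19 and SNHG4, so that the SNHG8 call ended. For OE_control against sh_control, 1 member was called, 3 after scaling to the protein-coding sum, 2 with only the groups compared (442 in place of 987 genes), and 1 to 2 without a single library. Leaving out libraries gave 2 to 3 called transcripts with overexpression, 1 to 3 between the controls, 0 to 2 with knockdown (GAS5-209 and GAS5-218 without sh_control replicate 1) and 0 to 1 for the interaction.

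Replicate numbers were not taken as pairing the libraries, since the labels name no shared source: same-numbered libraries of different groups had correlations of -0.114 to 0.195, 3 of 18 over 0.1, though 8 of 12 libraries correlated best with their own number, a hint from the data and not the design. With the replicate number as a block, 1 member was called with overexpression (SNHG4 and SNHG8 had adjusted p = 0.060 and 0.064), and 2, 0 and 2 transcripts with overexpression, for the interaction and between the controls, in place of 4, 1 and 4. Depth per library is unknown, so counting error near 1 FPKM cannot be stated.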
